A study of Mus musculus with 19 samples.

Results

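This account follows 10 transcription factor genes, Batf, Irf4, Irf8, Bach2, Jun, Junb, Jund, Fos, Fosb and Fosl2, in sorted mouse CD4+ T cells measured on 19 Affymetrix arrays. They were taken by name, out of 18193 genes that had a probe set annotated with 1 symbol only. These genes and the gene lists below were chosen with earlier results of these data known. Shares called among them therefore describe the chosen genes only. Where a gene had several such probe sets, the brightest on average stands for it, and values are the deposited log2 expression values. All 10 passed the filter on low values, a log2 value of 4 or more on at least 2 arrays. Of them, 9 reached log2 4 on all 19 arrays and Fosb on 11.

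The cells came from C57BL/6J mice. One growth protocol is given for every sample. It describes OT-II T cells, which carry a transgenic receptor for an ovalbumin peptide, with 1 Bcl6 allele replaced by a YFP reporter (Bcl6yfp/+). Recipients of these cells received NP-OVA in CFA subcutaneously, and T cells were sorted from the draining lymph nodes at day 7 or day 10. YFP-positive (n = 4; 3 at day 7 and 1 at day 10) and YFP-negative cells (n = 4; 2 at day 7 and 2 at day 10) were both CXCR5hi PD-1hi, the gate of follicular helper T (Tfh) cells. Further CXCR5hi PD-1hi cells were Bcl6yfp/+ (n = 3, day 7) or Bcl6+/+ (n = 3; 1 at day 7 and 2 at day 10), without a split by YFP in their labels. CXCR5lo PD-1lo cells (n = 3, day 7) were the other activated cells of immunized mice. Naive CD4+ T cells (n = 2) were CD44lo CD62Lhi cells from the spleen of unimmunized mice. Whether the shared transfer protocol covers the Bcl6+/+ and naive samples is not stated in the labels. Ages are not given in the labels.

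AP-1 is a dimer of basic leucine zipper (bZIP) proteins, usually 1 of the Jun family with 1 of the Fos family, and it turns on genes after T cell receptor and stress signals. BATF pairs with a Jun protein in place of Fos and binds composite DNA elements together with IRF4 or IRF8; T cells without BATF or IRF4 do not become Tfh cells. BACH2, a bZIP repressor, occupies many AP-1 sites and restrains effector differentiation. Fos, Fosb, Jun and Junb are also immediate early genes, whose mRNA appears within minutes of stimulation, while Jund is known for steady expression.

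By RefSeq (GRCm38.p6) the genes lie as follows. The BATF and IRF genes are Batf at chr12:85686720-85709087, Irf4 at chr13:30749233-30766981 and Irf8 at chr8:120736358-120756694, and the repressor is Bach2 at chr4:32238413-32586109. The Jun family is Jun at chr4:95049036-95052222, Junb at chr8:84976909-84978748 and Jund at chr8:70697739-70700616. The Fos family is Fos at chr12:85473890-85477274, Fosb at chr7:19302696-19310118 and Fosl2 at chr5:32136472-32157840.

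Promoter sequence is shown for the Jun family and Fos, because Fos and Jun moved together over the arrays while Jund was the steadiest of the 10 genes. Each run is the 180 bases before the RefSeq start site (GRCm38.p6, 5′ to 3′ on the gene's strand), on chr12:85473710-85473889 (+) for Fos, chr4:95052223-95052402 (-) for Jun, chr8:84978749-84978928 (-) for Junb and chr8:70697559-70697738 (+) for Jund. Capitals mark TGACG, the half-site of the cAMP response element, and in Jun TGACATCA, the letters of the proximal AP-1-like site known from JUN promoters.
Fos: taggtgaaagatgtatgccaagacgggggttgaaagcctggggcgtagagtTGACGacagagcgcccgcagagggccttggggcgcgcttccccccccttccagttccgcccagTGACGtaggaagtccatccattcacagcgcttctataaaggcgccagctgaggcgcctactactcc
Jun: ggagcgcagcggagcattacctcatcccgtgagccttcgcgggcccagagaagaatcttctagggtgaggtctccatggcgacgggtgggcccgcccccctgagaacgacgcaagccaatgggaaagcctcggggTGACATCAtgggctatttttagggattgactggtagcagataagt
Junb: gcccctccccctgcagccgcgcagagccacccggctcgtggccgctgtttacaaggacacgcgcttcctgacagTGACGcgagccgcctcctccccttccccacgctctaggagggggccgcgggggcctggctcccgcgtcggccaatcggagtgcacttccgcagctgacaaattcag
Jund: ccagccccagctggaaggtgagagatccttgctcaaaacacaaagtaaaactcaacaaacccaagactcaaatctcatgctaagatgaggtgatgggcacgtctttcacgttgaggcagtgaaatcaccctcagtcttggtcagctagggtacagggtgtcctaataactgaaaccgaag
RefSeq windows of 300 bases, 250 before and 50 after a start site, were found for all 10 genes and searched on both strands. The complete cAMP response element TGACGTCA was in 0 of 10 and in 1.79% of all 32851 windows. The AP-1 site TGANTCA was also in 0 of 10, against 7.81% of all windows. The half-site TGACG, searched after the complete element had matched no member, was in 4 of 10 (Fos, Fosb, Junb and Batf) and in 20.8% of all windows. TGACATCA was in Jun alone among the 10 and in 3.62% of all windows. A STAT site, TTCNNNGAA, was in Bach2 and Irf8 and in 8.3% of all windows, and a tandem IRF site in Fosl2 and in 3.44% of all windows. These matches say only which letters a window holds.

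The deposited values did not have 1 common distribution, as a joint normalization gives. By their sorted values the arrays fell into 7 sets: arrays of 1 set differed by 0.0482 or less on average, arrays of different sets by 0.0666 or more. Sets 1, 2 and 3 each join the 3 arrays of that replicate number from the YFP-positive, the YFP-negative and the CXCR5lo PD-1lo group. Set 4 joins both replicate 4 arrays of the YFP groups and the first naive array. The second naive array shares set 5 with Bcl6yfp/+ replicate 1. Set 6 has the later Bcl6yfp/+ and Bcl6+/+ arrays (replicates 2 and 3), and Bcl6+/+ replicate 1 stands alone as set 7. Differences are therefore also given within sets. Array medians ran from 2.40 to 2.99, and a value near 2 is the floor of the scale. All 7 measured T cell markers reached log2 8 on every array. Of 10 Tfh markers, 9 or 10 reached it on every CXCR5hi PD-1hi array, 8 on CXCR5lo PD-1lo and 4 on naive arrays. Since each array holds RNA of a pool of cells, fewer cells that express a gene and less RNA per cell cannot be told apart.

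**Figure D1:**
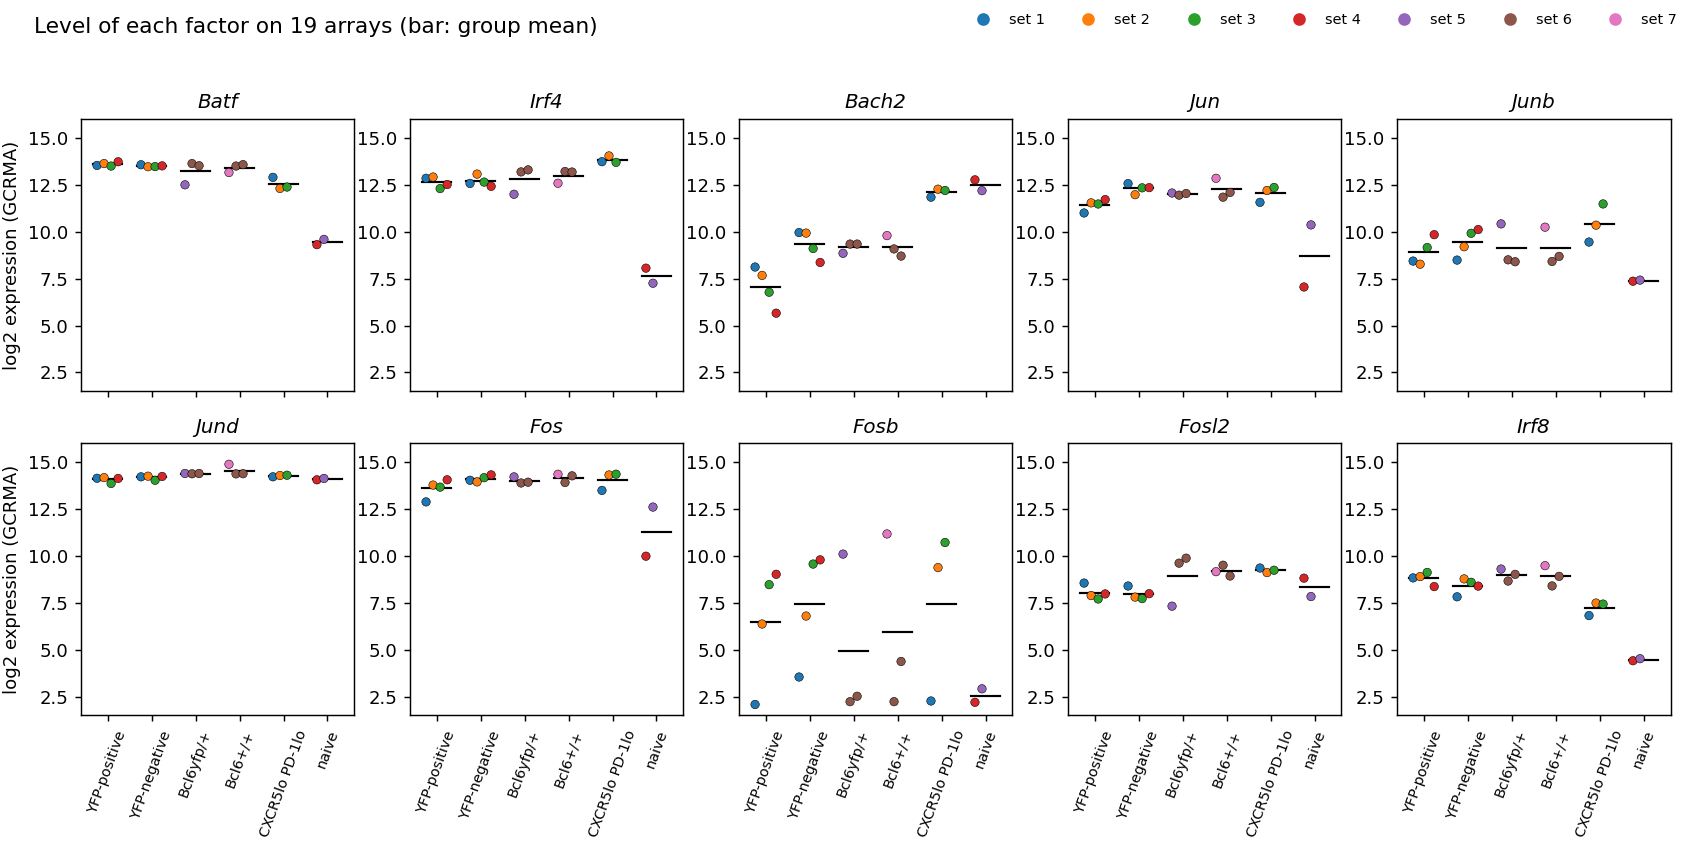
Log2 expression of the 10 genes on 19 arrays; each point is an array, coloured by normalization set, bars are group means, and groups run from YFP-positive on the left to naive on the right. Bach2 is lowest on the YFP-positive arrays, intermediate on the other CXCR5hi PD-1hi arrays and highest on CXCR5lo PD-1lo and naive arrays, Jund stays between 13.86 and 14.89, and Fosb spans 2.08 to 11.17.

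BATF and IRF4 were both high in every activated group and low in naive cells, but their order among activated cells was opposite. Batf, the bZIP partner of IRF4, read 13.54, 13.64, 13.50 and 13.73 on YFP-positive arrays and 13.57, 13.47, 13.48 and 13.51 on YFP-negative arrays. It read 12.50, 13.64 and 13.52 on Bcl6yfp/+ arrays, 13.16, 13.50 and 13.58 on Bcl6+/+ arrays, 12.90, 12.31 and 12.38 on CXCR5lo PD-1lo arrays, and 9.31 and 9.59 on naive arrays. The YFP-positive and YFP-negative arrays all lay above the CXCR5lo PD-1lo arrays, which all lay above the naive arrays; 1 Bcl6yfp/+ array lay within the CXCR5lo PD-1lo range.

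Irf4, the interferon regulatory factor that the T cell receptor induces in proportion to signal strength, had its highest level in CXCR5lo PD-1lo cells. It read 12.85, 12.92, 12.30 and 12.52 on YFP-positive arrays and 12.58, 13.08, 12.65 and 12.42 on YFP-negative arrays. It read 11.999, 13.19 and 13.30 on Bcl6yfp/+ arrays, 12.59, 13.21 and 13.18 on Bcl6+/+ arrays, 13.74, 14.04 and 13.70 on CXCR5lo PD-1lo arrays, and 8.06 and 7.25 on naive arrays. All CXCR5lo PD-1lo arrays lay above all arrays of the 4 Tfh-gated groups, and those overlapped one another. A second Irf4 probe set lay near the floor (mean 3.14) and was also highest in CXCR5lo PD-1lo cells, at a mean of 4.75.

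Irf8, the closest relative of Irf4 and best known from myeloid and B cells, was lowest in naive cells and next lowest in CXCR5lo PD-1lo cells, with the 4 Tfh-gated groups overlapping above. Its values were 8.83, 8.90, 9.12 and 8.36 on YFP-positive and 7.82, 8.77, 8.59 and 8.39 on YFP-negative arrays. On the other arrays it read 9.30, 8.66 and 9.01 (Bcl6yfp/+), 9.48, 8.40 and 8.91 (Bcl6+/+), 6.82, 7.49 and 7.43 (CXCR5lo PD-1lo), and 4.41 and 4.52 (naive). No CXCR5lo PD-1lo array reached the lowest Tfh-gated array, and both naive arrays lay below all others.

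B cell, plasma cell and myeloid markers are given here because B and myeloid cells express Irf8, B cells also Bach2 and Irf4, and plasma cells high Irf4. Of 13 measured B cell markers, 2 or 3 reached log2 8 on each CXCR5hi PD-1hi array, 2 on each CXCR5lo PD-1lo array and 1 on each naive array. The summed B cell marker level ran from 12.41 to 12.93 on YFP-positive, 12.03 to 12.91 on YFP-negative, 11.61 to 12.33 on Bcl6yfp/+, 12.46 to 13.14 on Bcl6+/+, 12.10 to 12.34 on CXCR5lo PD-1lo and 12.33 to 12.63 on naive arrays (log2). The defining B cell genes Cd79a, Pax5 and Blk were at the floor in every group, with group means of at most 2.33, 2.14 and 2.19, and those at log2 8 or more were Ighm, Cd22 and Cd74. Of 14 myeloid and dendritic markers, none reached log2 8 on the YFP-positive arrays and 4 did on YFP-negative replicate 1, the array with the lowest Irf8 of its group; the part of these cells in Irf8 was not tested. The summed myeloid level was 13.01 on that array and 7.37 to 8.46 on the other YFP-negative arrays, against 7.14 to 8.49 on YFP-positive, 6.49 to 6.87 on Bcl6yfp/+, 6.49 to 6.63 on Bcl6+/+, 7.56 to 8.81 on CXCR5lo PD-1lo and 6.73 to 8.84 on naive arrays. Csf1r, Itgam and Cd14 were at the floor in all groups, but they stand for a part of the list only. On YFP-negative replicate 1, 4 other myeloid and dendritic markers were at log2 8 or more and 10 of the 14 were under log2 4.

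Of 6 measured germinal centre B and plasma cell markers, 2 or 3 reached log2 8 on each YFP-positive and YFP-negative array, 2 on each Bcl6yfp/+ and Bcl6+/+ array, 1 or 2 on CXCR5lo PD-1lo arrays and 1 on each naive array. Their summed level ran from 11.35 to 12.05 on YFP-positive, 11.16 to 13.23 on YFP-negative, 10.76 to 11.76 on Bcl6yfp/+, 11.74 to 11.78 on Bcl6+/+ and 10.57 to 11.96 on CXCR5lo PD-1lo arrays and was 9.20 on both naive arrays (log2). Jchain, the joining chain of secreted antibody, was high where Irf4 was highest, at 10.53, 7.91 and 7.72 on CXCR5lo PD-1lo arrays. It also reached 8.45 on YFP-positive replicate 1, 12.42 on YFP-negative replicate 1 and 7.54 on Bcl6yfp/+ replicate 1, while the other Tfh-gated arrays and the naive arrays read 5.56 or less. The plasma cell genes Mzb1 and Sdc1 averaged 2.13 and 2.35, at the floor, in CXCR5lo PD-1lo cells, while Xbp1 was above log2 8 on every array. On YFP-negative replicate 1, the array with Jchain at 12.42, Mzb1 read 5.61 and Sdc1 6.54. Mzb1 was at the floor on all other arrays. Sdc1 also read 4.998 on YFP-negative replicate 4 and 5.33 on Bcl6+/+ replicate 1. The part of such cells in the Irf4 values was not tested.

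Between YFP-positive and CXCR5lo PD-1lo cells, Batf rose 2.10-fold (log2 1.07, SE 0.25, limma adjusted p = 0.0083) and Irf8 2.94-fold (log2 1.56, SE 0.29, limma adjusted p = 0.0020). Irf4 fell by 1.18 on the log2 scale (SE 0.31, limma adjusted p = 0.021) and Bach2 by 5.05 (SE 0.50, limma adjusted p = 2.7e-06). These 4 of 10 members were called, as were 10.6% of the 9930 genes tested. Groups did not overlap for 6 members, the 4 named with Fosl2 and Jund, and for 22.9% of all genes. The median log2 difference of the 10 was -0.79, against -0.07 over all genes. Within sets 1, 2 and 3, Batf and Irf8 were higher and 7 genes lower in the YFP-positive array in every set. Fosb was lower in sets 2 and 3 and under log2 4 on both arrays of set 1. The matching share over all genes was not computed, so these counts only describe the members. Batf was not called without CXCR5lo PD-1lo replicate 2 (log2 0.96, adjusted p = 0.057), nor Irf4 without YFP-positive replicate 3 (-1.06, adjusted p = 0.068), CXCR5lo PD-1lo replicate 2 (-1.07, adjusted p = 0.107) or 3 (-1.24, adjusted p = 0.0531), or all day 10 arrays (-1.14, adjusted p = 0.0729). The mean of both Irf8 probe sets, of which the other averages 3.09 over all arrays, gave 0.94 for Irf8 (adjusted p = 0.305).

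YFP-negative cells were set against the same CXCR5lo PD-1lo arrays, so that both comparisons share them. Batf rose 1.97-fold (log2 0.98, SE 0.25, limma adjusted p = 0.022) and Irf8 2.22-fold (log2 1.15, SE 0.29, limma adjusted p = 0.024). Irf4 fell by 1.15 (SE 0.31, limma adjusted p = 0.034) and Bach2 by 2.77 on the log2 scale (SE 0.50, limma adjusted p = 0.0017). These 4 of 10 stand against 6.53% of all genes called, and 5 members with groups that did not overlap, Fosl2 being the fifth, against 18.7% of all genes. Without the day 10 arrays Batf (0.94, adjusted p = 0.226) and Irf4 (-0.96, adjusted p = 0.369) were not called, nor with day 10 as a covariate (adjusted p = 0.058 and 0.126), nor Irf4 without a filter on low values (adjusted p = 0.0633). The mean of both Irf8 probe sets gave 0.69 for Irf8 (adjusted p = 0.623), and a fit of these 7 arrays alone 1.15 (adjusted p = 0.0672). Leaving out 1 array at a time, Bach2 was called 7 of 7 times and Batf 3 times, not without YFP-negative 1 or 4 or CXCR5lo PD-1lo 2 or 3. Irf8 was called 2 times, not without YFP-negative 2, 3 or 4 or CXCR5lo PD-1lo 1 or 3, and Irf4 1 time, when YFP-negative 2 was left out. Their values in those fits ran from 0.87 to 1.16 for Batf, 0.94 to 1.34 for Irf8 and -1.28 to -1.04 for Irf4.

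**Figure D2:**
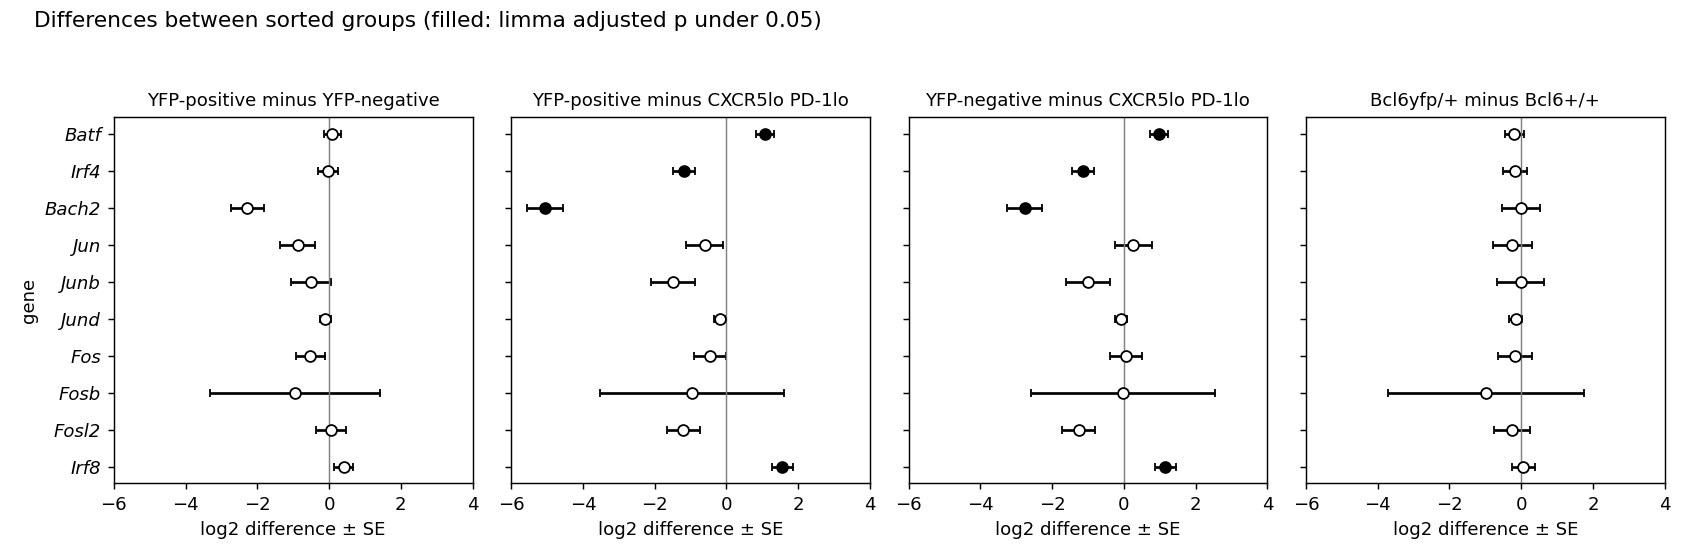
Log2 differences of the 10 genes with their standard errors in 4 comparisons of sorted groups; filled points have a limma adjusted p under 0.05. Batf, Irf4, Bach2 and Irf8 are filled in both comparisons with CXCR5lo PD-1lo cells, and none is filled between YFP-positive and YFP-negative cells or between the Bcl6 genotypes.

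Among the activated groups, Bach2 had the widest difference in mean level of the 10 genes, the -5.05 between YFP-positive and CXCR5lo PD-1lo cells. It read 8.12, 7.67, 6.77 and 5.66 on YFP-positive arrays, against 9.96, 9.93, 9.11 and 8.36 on YFP-negative arrays. Its values were 8.85, 9.34 and 9.34 on Bcl6yfp/+ and 9.79, 9.08 and 8.70 on Bcl6+/+ arrays, 11.84, 12.27 and 12.20 on CXCR5lo PD-1lo arrays, and 12.77 and 12.19 on naive arrays. Every YFP-positive array lay below the other 15 arrays, the YFP-negative, Bcl6yfp/+ and Bcl6+/+ arrays overlapped one another, and the CXCR5lo PD-1lo and naive arrays, which overlapped, lay above all the rest. Naive T cell markers varied with it: of 5 measured, 1 or 2 reached log2 8 on YFP-positive, 2 to 5 on YFP-negative, 4 or 5 on Bcl6yfp/+ and Bcl6+/+, and 5 on CXCR5lo PD-1lo and naive arrays. Their summed level ran from 12.50 to 13.71 on YFP-positive, 13.28 to 14.05 on YFP-negative, 13.49 to 14.04 on Bcl6yfp/+, 13.50 to 14.08 on Bcl6+/+, 15.00 to 15.52 on CXCR5lo PD-1lo and 15.53 to 15.91 on naive arrays, and their part in the Bach2 values was not tested. Of 5 measured CD8 T and NK cell markers, 1, the NK receptor gene Klrd1, reached log2 8 on each CXCR5lo PD-1lo and naive array and none did elsewhere. Klrd1 averaged 10.72 in CXCR5lo PD-1lo and 10.63 in naive cells, where Bach2 was highest, and 2.24 to 3.12 in the Tfh-gated groups, while Cd8a and Ncr1 averaged at most 2.38 and 2.20 in any group. Cd8b1, in contrast, was above the floor on every array, from 5.40 to 7.59. Eomes reached 4.81 on naive replicate 1 and was under log2 4 on every other array. The list's summed level ran from 6.59 to 7.24 on YFP-positive, 6.59 to 7.53 on YFP-negative, 6.29 to 6.82 on Bcl6yfp/+, 5.95 to 6.81 on Bcl6+/+, 10.34 to 11.39 on CXCR5lo PD-1lo and 9.94 to 11.56 on naive arrays.

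The difference between YFP-positive and YFP-negative cells was -2.28 on the log2 scale for Bach2 (4.87-fold lower, SE 0.46, limma adjusted p = 0.069), which missed the threshold of 0.05. It was lower in 4 of 4 sets, by -1.84, -2.26, -2.33 and -2.71 in sets 1 to 4. With the replicate number as a block the same difference had an adjusted p of 0.00931 in a fit that called 0.745% of all genes. The other Bach2 probe sets gave -2.75 and -2.60. Without YFP-positive replicate 4, the day 10 array with the lowest value, the difference was -1.82 (adjusted p = 0.0276), and without YFP-positive replicate 1 it was -2.64 (adjusted p = 0.0458). Of the 10 members 0 were called by limma here without a block, against 0.121% of all genes; at an unadjusted p under 0.05 it was 1 member, Bach2, against 7.92% of all genes. Groups did not overlap for Bach2 and Jun, against 3.89% of all genes.

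For the other 9 members the YFP-positive minus YFP-negative interval reached across 0. The 95% intervals of the log2 difference were -0.39 to 0.58 for Batf, -0.64 to 0.58 for Irf4, -0.17 to 0.98 for Irf8 and -0.43 to 0.22 for Jund. That of Jun, the founding AP-1 subunit, was -1.89 to 0.14 around -0.88 (SE 0.48, limma adjusted p = 0.79). The corresponding intervals were -1.70 to 0.70 for Junb, -1.39 to 0.35 for Fos and -0.85 to 0.95 for Fosl2, while that of Fosb, -5.96 to 4.08, left its difference undetermined. All these intervals rest on 1 spread shared by all groups, so the naive arrays enter it too. For Jun the SD was 2.34 on naive, 0.31 on YFP-positive and 0.25 on YFP-negative arrays. For Fos it was 1.85, 0.50 and 0.16 in that order. The Jun and Fos intervals therefore include the disagreement of the naive arrays.

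Pairs of arrays within a set showed the AP-1 genes more closely. Jun was lower in the YFP-positive array of all 4 sets, by -1.57, -0.44, -0.86 and -0.64, and Fos by -1.15, -0.17, -0.50 and -0.26. The widest of these, in set 1, set a day 7 array with Eif2s3y, a Y-linked gene, at 2.40 against a day 10 array with Eif2s3y at 13.28, so that this pair differs also in day and in the sex of the cells. It differs in markers of other cells too. YFP-negative replicate 1 had 4 myeloid markers at log2 8 or more and Jchain at 12.42, against 0 and 8.45 on YFP-positive replicate 1. Their part in the Jun and Fos differences was not tested. Fosb differed by -0.43, -1.10 and -0.77 in sets 2 to 4 and was under log2 4 on both arrays of set 1. In all, 5 members were lower in 4 of 4 sets (Bach2, Jun, Junb, Jund and Fos), Fosb was lower in the 3 sets that measured it, and none was higher in 4 of 4. The share of all genes with 1 direction in every set was not computed, so these counts only describe the members. With the set as a block Jun had an adjusted p of 0.0241, in a fit that called 15.5% of all genes. With the replicate number as a block it had the same difference and a limma adjusted p of 0.512. Both blocks pair the same YFP arrays, but the SE of Jun was 0.19 with the set and 0.55 with the replicate number. The replicate block keeps both naive arrays, where Jun read 7.05 and 10.37, in 1 block, while the set block separates them.

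**Figure D3:**
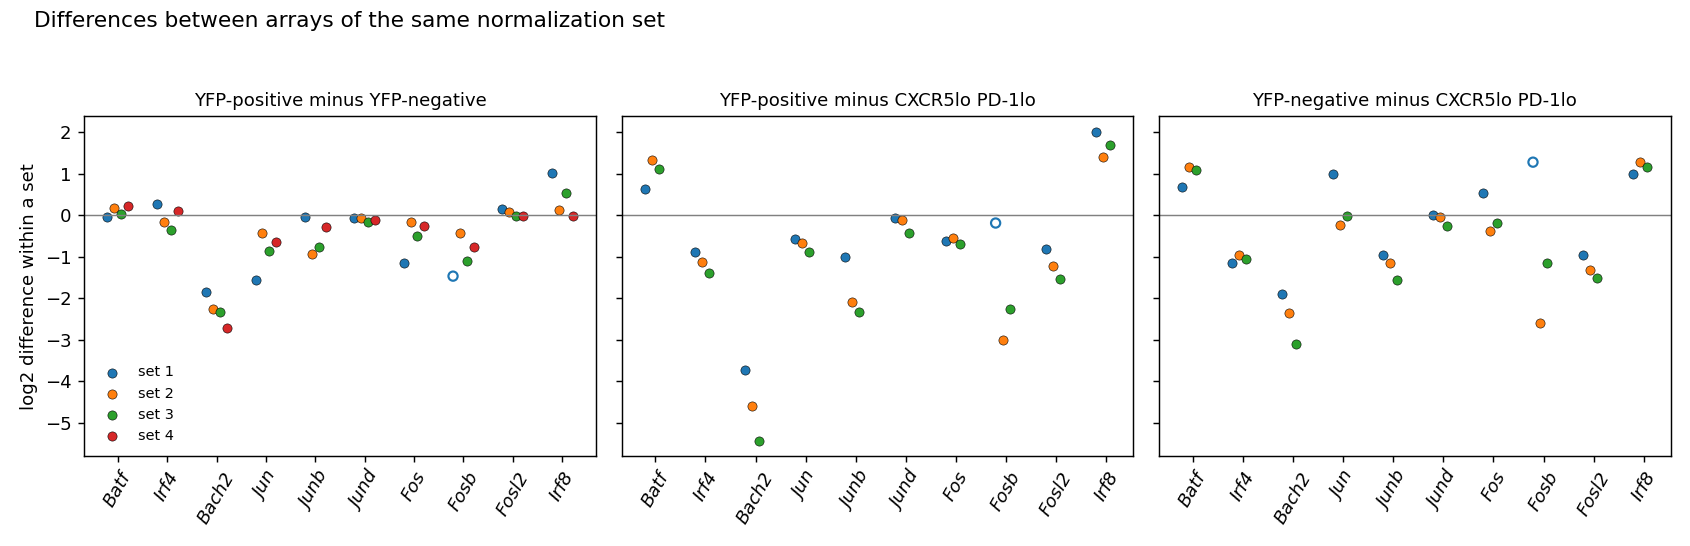
Log2 difference of each gene between arrays of the same normalization set, 1 point per set; open points mark pairs with both arrays under log2 4 (Fosb in set 1). Bach2, Jun, Junb, Jund and Fos lie below 0 in all 4 sets of the left panel, and Batf and Irf8 lie above 0 in all sets of the other panels.

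Bcl6yfp/+ and Bcl6+/+ cells differ in the reporter allele, but also in day. All 3 Bcl6yfp/+ arrays were of day 7 and 2 of the 3 Bcl6+/+ arrays of day 10, so allele and day are not separated. Replicate 1 of each lay in a different set (5 and 7). The comparison gave 0 of 10 members called by limma and 0% of all genes. At an unadjusted p under 0.05 it was 0 members and 2.89% of all genes. No member had groups that did not overlap, against 4.58% of all genes. The 95% intervals were -0.75 to 0.36 for Batf, -0.87 to 0.54 for Irf4, -0.60 to 0.73 for Irf8 and -1.14 to 1.11 for Bach2. The other Bach2 probe sets gave differences of -0.09 and 1.40, the latter outside that interval. Among the AP-1 genes they ran from -0.54 to 0.22 for Jund to -6.78 to 4.83 for Fosb.

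The comparisons of the activated groups with naive cells all use the same 2 naive arrays. Batf, Irf4, Irf8, Jun and Fos rose and Bach2 fell in YFP-positive cells (6 of 10 called, against 28.8% of all genes) and in Bcl6yfp/+ (6 of 10, against 20.5%) and Bcl6+/+ cells (6 of 10, against 35.9%). YFP-negative cells added Junb (7 of 10, against 21.1%). CXCR5lo PD-1lo cells had the 5 rises and Junb, but not Bach2 (6 of 10, against 11.9%). The median gene itself stood 0.39, 0.38, 0.37, 0.64 and 0.46 above naive in YFP-positive, YFP-negative, Bcl6yfp/+, Bcl6+/+ and CXCR5lo PD-1lo cells; with array medians made equal, the called members kept their direction, but Junb (adjusted p = 0.232 in YFP-negative and 0.12 in CXCR5lo PD-1lo cells) and, in CXCR5lo PD-1lo cells, Fos (adjusted p = 0.0564) were no longer called. With the set as a block Fosb was called higher in all 5 comparisons (log2 6.74 to 8.53, adjusted p = 0.000593 to 0.00591), from naive values under log2 4. The same fit added Junb in YFP-positive, Bcl6yfp/+ and Bcl6+/+ cells (log2 2.37, 2.999 and 3.10) and Fosl2, which was lower, in YFP-positive (-0.81, adjusted p = 0.034) and YFP-negative cells (-0.86, adjusted p = 0.0296). It called 47%, 41.6%, 27.2%, 18.6% and 23.4% of all genes in YFP-positive, YFP-negative, Bcl6yfp/+, Bcl6+/+ and CXCR5lo PD-1lo cells.

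Irf4 had the largest of the called rises, by log2 4.99 in YFP-positive, 5.02 in YFP-negative and 6.17 in CXCR5lo PD-1lo cells (72.0-fold in the last, SE 0.37, limma adjusted p = 6.6e-09). The rise of Batf was 4.15, 4.06 and 3.08 in the same order (17.8-fold in YFP-positive cells, SE 0.28, limma adjusted p = 1.2e-08). That of Irf8 was 4.34, 3.93 and 2.78, from naive levels close to the filter limit, so that its fold depends on the low end of the scale; in CXCR5lo PD-1lo cells the mean of both probe sets gave 1.61 (adjusted p = 0.0859). Bach2 fell by 5.43 on the log2 scale in YFP-positive cells (SE 0.56, limma adjusted p = 1.8e-06) and by 3.14, 3.30 and 3.29 in YFP-negative, Bcl6yfp/+ and Bcl6+/+ cells. In CXCR5lo PD-1lo cells the Bach2 difference was -0.38 (95% interval -1.64 to 0.88, limma adjusted p = 0.68), and -1.08 and 0.59 by its other probe sets. No set holds both of those groups; with the set as a block, which links them through other groups, it was -2.25 (adjusted p = 0.00994).

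The naive arrays disagreed for the immediate early genes. Jun read 11.002, 11.54, 11.48 and 11.72 on YFP-positive arrays, 12.57, 11.98, 12.34 and 12.35 on YFP-negative, 12.07, 11.95 and 12.04 on Bcl6yfp/+, 12.85, 11.84 and 12.10 on Bcl6+/+, and 11.57, 12.20 and 12.36 on CXCR5lo PD-1lo arrays, but 7.05 and 10.37 on the naive arrays. Fos, the leucine zipper partner of Jun, likewise ran from 12.88 to 14.36 on the 17 activated arrays and read 9.98 and 12.60 on the naive arrays. Both genes lay above both naive arrays on every activated array, yet the gap depended on which naive array was used. Without naive replicate 1 the YFP-positive rise shrank to 1.07 for Jun (adjusted p = 0.0683) and 0.99 for Fos (adjusted p = 0.098), against 2.72 and 2.30 with both naive arrays. Fitted on the compared groups alone, Jun and Fos were not called in YFP-positive (adjusted p = 0.0528 and 0.0563), Bcl6+/+ (0.0577 and 0.0521) or CXCR5lo PD-1lo cells (0.108 for both). Eif2s3y read 2.15 on naive replicate 1 and 12.89 on naive replicate 2, so that these arrays differ also in the sex of the cells.

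**Figure D4:**
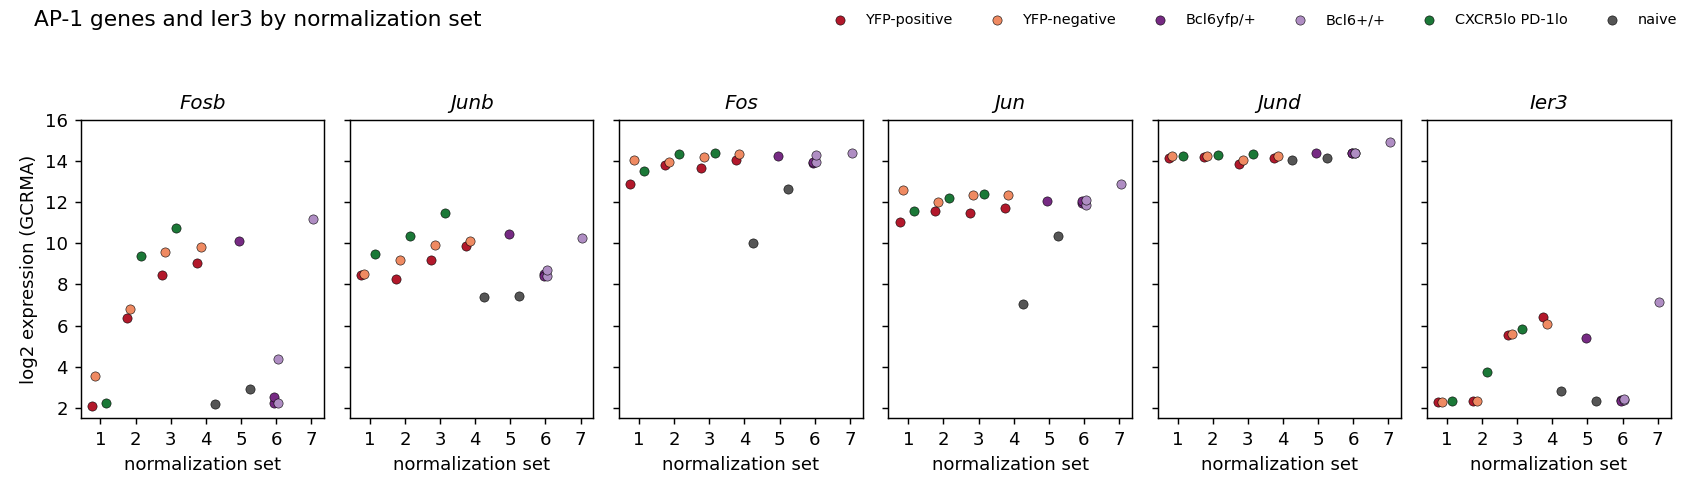
Log2 expression of 5 AP-1 genes and of the early gene Ier3 by normalization set; each point is an array, coloured by group. Fosb and Ier3 are low in sets 1 and 6 in every group and high in sets 3, 5 and 7 outside the naive arrays, while Jund is level.

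Fosb, an immediate early Fos protein, had the widest spread within groups of the 10. Its values were 2.08, 6.37, 8.47 and 9.02 on YFP-positive arrays, 3.54, 6.79, 9.57 and 9.79 on YFP-negative, 10.10, 2.23 and 2.51 on Bcl6yfp/+, 11.17, 2.23 and 4.37 on Bcl6+/+, 2.26, 9.38 and 10.71 on CXCR5lo PD-1lo, and 2.19 and 2.91 on naive arrays. Every group held at least 1 array under log2 4. Its residual SD after group means was 3.73, at percentile 99.9 of all tested genes, whose median was 0.43; with the set also fitted it was 0.96.

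Ier3, an early response gene and 1 of the 3 genes most like Fosb on these arrays, followed the same arrays. In all, 8 arrays had Fosb at log2 8 or more (the lowest 8.47, the highest of the rest 6.79). The 7 arrays with Ier3 at log2 5 or more were all among these. Nr4a2, an early nuclear receptor gene picked out after its values were seen, reached log2 4.5 on 8 arrays, 7 of them also high in Fosb. Not every early gene followed Fosb. Egr2 was highest on the set 6 arrays, at 14.15 to 14.27, where Fosb read 2.23 to 4.37. How many early genes followed Fosb was not counted. Of the 23 genes of the immediate early and dissociation response list, 19 had an adjusted p under 0.05 for the set term (limma F test, a test added after the data were seen), as did all 10 members and 88.5% of all genes. The part of this list in the Fosb differences was not tested.

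Junb, a Jun protein that also partners BATF, leaned the same way. It read 8.44, 8.27, 9.16 and 9.85 on YFP-positive arrays, 8.49, 9.20, 9.92 and 10.12 on YFP-negative and 9.45, 10.35 and 11.48 on CXCR5lo PD-1lo arrays. On Bcl6yfp/+ arrays it read 10.42, 8.50 and 8.40, on Bcl6+/+ arrays 10.24, 8.42 and 8.69, and on naive arrays 7.36 and 7.42. The naive arrays were lowest, and the activated groups overlapped. Of its calls against naive cells, that in YFP-negative cells (log2 2.04, SE 0.69, limma adjusted p = 0.047) was lost without YFP-negative replicate 2, 3 or 4 or either naive array, and that in CXCR5lo PD-1lo cells (3.04, SE 0.73, limma adjusted p = 0.012) without either naive array, with adjusted p of 0.0676 to 0.203 and of 0.0717 and 0.0819. Both were also lost with quantile normalization (adjusted p = 0.199 and 0.0927), the first without a filter on low values (0.102), with day 10 as a covariate (0.0917) and without the day 10 arrays (0.0607), and the second when only the 5 arrays compared were fitted (0.055).

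Within sets 1, 2 and 3, Junb was lower in both Tfh-gated arrays than in the CXCR5lo PD-1lo array. Its difference from CXCR5lo PD-1lo cells was -1.50 in YFP-positive (SE 0.61, limma adjusted p = 0.15) and -0.997 in YFP-negative cells (SE 0.61, limma adjusted p = 0.51). With the replicate number as a block it was -1.77 (limma adjusted p = 0.000266; 20.8% of all genes called) and -1.26 (limma adjusted p = 0.0032; 11.2% called). In the same blocked fit Fosb differed by -1.79 between YFP-positive and CXCR5lo PD-1lo cells (limma adjusted p = 0.0464), against -0.97 without a block (adjusted p = 0.91); both values include the set 1 arrays under log2 4.

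Fosl2, a Fos protein with slower kinetics than Fos, was lower in YFP-positive and YFP-negative cells than in CXCR5lo PD-1lo cells on every array, without passing the test. It read 8.55, 7.88, 7.70 and 7.97 on YFP-positive and 8.40, 7.80, 7.72 and 7.99 on YFP-negative arrays, against 9.35, 9.11 and 9.23 on CXCR5lo PD-1lo arrays. The log2 differences were -1.21 (SE 0.46, limma adjusted p = 0.12) and -1.26 (SE 0.46, limma adjusted p = 0.14). They were called with quantile normalization (-1.25, adjusted p = 0.0166, and -1.27, adjusted p = 0.0216) with equal array medians (adjusted p = 0.0247 and 0.0367), with the set as a block (adjusted p = 0.000615 and 0.000705) and in fits of the compared groups alone (adjusted p = 0.0214 and 0.0146), but not with the replicate number as a block (adjusted p = 0.0617 and 0.0811). Bcl6yfp/+ arrays spread from 7.32 to 9.88 and Bcl6+/+ arrays from 8.93 to 9.50, and the lowest was Bcl6yfp/+ replicate 1. Without that array the Bcl6yfp/+ minus naive difference was 1.42 (limma adjusted p = 0.00427), against 0.61 with it (limma adjusted p = 0.45).

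Jund, the constitutive Jun protein, hardly varied. Over the 19 arrays it ran from 13.86 to 14.89, and its residual SD of 0.14 lay at percentile 0.247 of all genes. Group means ran from 14.08 in YFP-positive to 14.55 in Bcl6+/+ cells, with 14.10 in naive cells. The Bcl6+/+ minus naive difference was 0.45 (95% interval 0.03 to 0.88, limma adjusted p = 0.084), and was called without a filter on low values (adjusted p = 0.0262) and with a trended robust spread (adjusted p = 0.045).

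Day 10 and day 7 arrays, fitted across the 3 groups that hold both, differed in 0 of 10 members by limma, against 0.232% of all genes; at an unadjusted p under 0.05 it was 0 members and 10.2% of all genes. The log2 differences ran from -0.52 for Bach2 (95% interval -1.39 to 0.35) to 1.07 for Fosb (-3.61 to 5.74). For Bach2 the day 10 minus day 7 difference was -1.86 in YFP-positive, -0.36 in YFP-negative and 0.73 in Bcl6+/+ cells; limma's interaction test gave an unadjusted p of 0.0364 and an adjusted p of 1. The Y-linked gene Eif2s3y read 13.2 to 13.3 on the day 10 arrays of both YFP groups and 2.25 to 2.40 on their day 7 arrays, so that there day and the sex of the cells cannot be told apart. It was above log2 12 on every Bcl6yfp/+ and Bcl6+/+ array.

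Over the 19 arrays, the genes most like each member by Pearson's r were found among all 9930; the arrays share groups and normalization sets, so r describes these arrays only. Batf was closest to Tnfsf14 (0.989), Ikzf2 (0.985) and Slc22a15 (0.984). Irf4 was closest to S100a4 (0.976), Nrp1 (0.973) and S100a6 (0.972), and Bach2 to Rasgrp2 (0.971), Sgms1 (0.966) and Gpr18 (0.962). Jun and Fos were each other's closest gene (0.983), followed for both by Ppp1r15a and Klf4. Fosb was closest to Spry1 (0.896), Ciart (0.890) and Ier3 (0.877), and Junb to Tnfaip3 (0.880), with Fosb next (0.842). Irf8 was closest to 9630013D21Rik (0.965), Ksr1 (0.951) and Egln3 (0.949), Jund to Grina (0.900) and Fosl2 to Imp3 (0.904).

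Among 15 other AP-1 and CREB/ATF genes, 10 were tested. Jdp2, a bZIP repressor that dimerizes with Jun proteins, averaged 10.67 in YFP-positive, 10.39 in YFP-negative and 5.87 in CXCR5lo PD-1lo cells. It rose by log2 4.80 in YFP-positive (SE 0.90, limma adjusted p = 0.0018) and 4.52 in YFP-negative cells (limma adjusted p = 0.0040) and was the only 1 of the 10 called against CXCR5lo PD-1lo cells, where 10.6% and 6.53% of all genes were. Against naive cells 3 of 10 rose in YFP-positive cells and none fell, close to the 28.8% of all genes called there: Jdp2, the stress factor Atf6 (log2 4.99, SE 0.55, limma adjusted p = 3.6e-06) and the cAMP-responsive Crem (1.90, SE 0.37, limma adjusted p = 0.0011). The list's median there was 0.28, against 0.39 over all genes. None of the 10 was called between YFP-positive and YFP-negative cells or between the Bcl6 genotypes.

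Of 18 genes listed as bound or controlled by BATF with IRF4 or by BACH2, 13 were tested. Against CXCR5lo PD-1lo cells 3 rose and 5 fell in YFP-positive cells, and 3 rose and 5 fell in YFP-negative cells (8 of 13 each, against 10.6% and 6.53% of all genes), with list medians of -0.18 and -0.39 (-0.07 and -0.09 over all genes). Il4, the Tfh cytokine, averaged 13.20 in YFP-positive and 4.03 in CXCR5lo PD-1lo cells (log2 difference 9.18, SE 0.53, limma adjusted p = 4.5e-09). Gzmb, a cytotoxic protease, averaged 2.10, at the floor, in YFP-positive and 10.29 in CXCR5lo PD-1lo cells (-8.19, SE 0.24, limma adjusted p = 7.1e-13). The interleukin 2 receptor gene Il2ra differed by -5.15 (SE 0.60) and the inhibitory receptor gene Havcr2 by -4.25 (SE 0.57), both also near the floor in YFP-positive cells. None of the 13 was called between YFP-positive and YFP-negative cells. The list was chosen with earlier results of these data known. It shares Il4 and Il21 with the Tfh markers and Gzmb with the Th1 and effector markers. Its share of called genes therefore describes these genes only. Of 7 measured Th1 and effector markers, 2 reached log2 8 on each YFP-positive array, 1 or 2 on YFP-negative and 5 or 6 on CXCR5lo PD-1lo arrays; their part was not tested.

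In the immediate early and dissociation response list of 23 genes, all were tested. Against CXCR5lo PD-1lo cells 3 fell and none rose in YFP-positive cells, where 10.6% of all genes were called: the phosphatase gene Dusp2 (-2.27, SE 0.31, limma adjusted p = 0.00011), Ier2 (-1.85, SE 0.46, limma adjusted p = 0.015) and Klf6 (-1.44, SE 0.26, limma adjusted p = 0.0013). In YFP-negative cells, with 6.53% of all genes called, Dusp2 alone fell (-1.92, SE 0.31, limma adjusted p = 0.00072). Against naive cells 7 rose and 1 fell in YFP-positive cells, 8 of 23 against 28.8% of all genes, and 10 of 23 rose in CXCR5lo PD-1lo cells, against 11.9%, with Gadd45b first in both (5.88 and 4.99).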

How the data were processed

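RNA of 19 sorted samples was measured on 1 Affymetrix array each, from biotin-labelled cDNA per the labels' protocols. The authors deposited log2 values, 1 for each probe set and array. GCRMA is named in the submitters' processing notes, with no version. No depth applies to arrays, and their number limits the precision.

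Probe sets were named through GEO's platform annotation (34945 of 45101 carried 1 symbol, 932 several, 9160 none, 64 were controls), matched to RefSeq genes of GRCm38.p6. Probe sets at log2 4 or more on at least 2 arrays were kept and the highest mean taken per gene, which left 9930 genes. A group-means model of the 19 arrays was fitted in limma 3.58.1 (R 4.3.3; lmFit with contrasts.fit, then eBayes), with 1 spread estimate for all groups, and p-values were adjusted by Benjamini-Hochberg over the 9930 genes; a gene was called under 0.05. Differences have standard errors (SE) and 95% intervals of the fit. The fit was tested on simulated data. Separate animals are not stated for the arrays of a group, so a p-value reflects the spread between these samples alone, possibly a technical one.

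Arrays whose sorted values differed by under 0.06 on average were taken as normalized together. Deviations of same-numbered arrays from their group means were correlated over all genes. The correlations were 0.450 to 0.868 between YFP-positive and YFP-negative and 0.391 to 0.684 between YFP-positive and CXCR5lo PD-1lo arrays. They were 0.267 to 0.387 between YFP-negative and CXCR5lo PD-1lo and 0.572 to 0.640 between Bcl6yfp/+ and Bcl6+/+ arrays. Arrays of different numbers were not correlated, and same-numbered YFP and CXCR5lo PD-1lo arrays also share a set. These values therefore cannot show that the numbers mark pairs. The blocked fit is given where it changed a call. RefSeq supplied the promoter windows. The members and gene lists were chosen with earlier results of these data known. From a list, up to 4 called genes with the largest change in a comparison are named, and for likeness the 3 genes with the highest r. Listed genes without a probe set of 1 symbol or under the filter were not tested. Alternatives were other filters, the mean of a gene's probe sets, quantile normalization, equal array medians, replicate or set blocks, day as a covariate, fits without day 10 or of the compared groups only, a trended robust spread, and leaving out each array.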

Additional observations from a re-analysis of the deposited data

Results flagged for a closer look

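Jund stood apart in 1 array of each YFP group. YFP-positive replicate 3 read 13.86 and YFP-negative replicate 3 read 14.03, each further below the other 3 arrays of its group than Dixon's 95% limit allows. The other arrays lay between 14.13 and 14.18 in YFP-positive and between 14.22 and 14.25 in YFP-negative cells. Both arrays belong to set 3, in which the CXCR5lo PD-1lo array read 14.30. Of 20 gene-by-group sets of 4 arrays tested, chance flags about 1 in 20.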

How the results depend on the processing

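The number of members called between YFP-positive and YFP-negative cells was 0, but 1 (Bach2) with quantile normalization, equal array medians, the replicate number as a block or a trended robust spread, 2 (Bach2 and Jun) with the set as a block, and 0 to 1 when 1 array was left out. In that order these fits called 0.664%, 0.453%, 0.745%, 0.161%, 15.5% and 0.0403% to 3.09% of all genes, against 0.121% in the main fit. Between YFP-positive and CXCR5lo PD-1lo cells it was 4. The replicate block added Junb and Fosb (20.8% of all genes called). Fosl2 was added with quantile normalization (19.6%), equal array medians (17.2%) and a fit of these groups alone (8.82%). Irf4 was lost without the day 10 arrays (11.3%) and Irf8 with the mean of its probe sets (11%). With the set as a block the number was 9, with Jun, Junb, Jund, Fos and Fosl2 added and 44.7% of all genes called. When 1 array was left out it was 2 to 4 (6.59% to 10.6% of all genes), against 10.6% in the main fit. Between YFP-negative and CXCR5lo PD-1lo cells it was 4, but 6 with the set as a block (Junb and Fosl2 added, 30.5% of all genes called), 5 with quantile normalization (12.3%), equal array medians (10.9%) or the replicate block (11.2%), 2 with day 10 as a covariate (4.95%), 2 without the day 10 arrays (4.14%) and 1 to 4 when 1 array was left out (4.17% to 6.09%). Irf8 was lost with the mean of its probe sets (6.68%) and Irf4 without a filter on low values (2.94%). A fit of the compared groups alone had Fosl2 in place of Irf8 (5.56%). The main fit called 6.53% of all genes. Between CXCR5lo PD-1lo and naive cells it was 6, but 3 when only these 5 arrays were fitted and 8 with the set as a block (Bach2, -2.25, adjusted p = 0.00994, and Fosb, 8.53, adjusted p = 0.00138, added). These 2 fits called 4.19% and 23.4% of all genes, against 11.9% in the main fit. The losses of Junb, Fos and Irf8 given above also lowered the number. With the set as a block it was also 9, 9, 8 and 8 in YFP-positive, YFP-negative, Bcl6yfp/+ and Bcl6+/+ against naive cells, with Fosb added in all 4, while 47%, 41.6%, 27.2% and 18.6% of all genes were called. The cause was not tested. With quantile normalization Fosl2 was also called lower in YFP-positive than in naive cells (-1.02, adjusted p = 0.0465), giving 5 higher and 2 lower in place of 5 and 1; the set block called it too (-0.81, adjusted p = 0.034), along with Junb and Fosb, which were higher. Over all genes, 12 were called between YFP-positive and YFP-negative cells, against 74 when replicate numbers were blocked and 1541 when sets were (replicate block and set block). The replicate block changed no call beyond those of Bach2, Junb and Fosb given above; no naive comparison was taken from it, since the labels number only 1 of the 2 naive arrays, while the set block covers all comparisons. No called member changed sign under any alternative. Values at the floor (Fosb, the other Irf4 and Irf8 probe sets) have no order.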

Other observations

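Of 20 other bZIP factors listed, 17 were tested, and 2 rose and none fell in YFP-positive against CXCR5lo PD-1lo cells (median 0.16, against -0.07 over all genes). These 2 of 17 are close to the 10.6% of all genes called there. Cebpa, a factor best known from myeloid and liver cells, averaged 13.73 in YFP-positive, 13.21 in YFP-negative, 7.27 in CXCR5lo PD-1lo and 2.14 in naive cells. It was 88.3-fold higher in YFP-positive than in CXCR5lo PD-1lo cells (log2 6.47, SE 0.78, limma adjusted p = 2.9e-05). Of the 14 myeloid markers, 0 reached log2 8 on YFP-positive arrays, 0 to 4 on YFP-negative arrays and 0 or 1 on CXCR5lo PD-1lo and naive arrays. The part of such cells in the Cebpa values was not tested. Mafg, a small Maf protein that partners BACH2, averaged 10.98 in YFP-positive and 7.95 in CXCR5lo PD-1lo cells (log2 3.03, SE 0.27, limma adjusted p = 9.8e-07). Maf rose by log2 7.08 in YFP-positive (SE 0.35, limma adjusted p = 3.3e-10) and 6.42 in CXCR5lo PD-1lo cells against naive cells (SE 0.37, limma adjusted p = 4.4e-09).

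Among 11 tested of 14 other IRF and ETS partner genes, Irf7 (-0.96, SE 0.23, limma adjusted p = 0.0099) and Irf1 (-0.62, SE 0.19, limma adjusted p = 0.047) fell in YFP-positive against CXCR5lo PD-1lo cells and none rose, where 10.6% of all genes were called. Of 17 tested MAP kinase input genes, the p38 activator genes Map2k3 and Map2k6 went opposite ways in that comparison: Map2k3 rose by 1.29 (SE 0.25, limma adjusted p = 0.0022) and Map2k6 fell by 1.41 (SE 0.24, limma adjusted p = 0.00086). The other 15 were not called.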
